A study of Homo sapiens with 6 samples.

Results

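The transcripts described here are 10 genes of the TRAIL and FAS death receptor pathway, out of 50868 genes in the deposited table. They were taken by gene name: TNFSF10, TNFRSF10A, TNFRSF10B, TNFRSF10D, FAS, FADD, CASP8, CFLAR, BIRC2 and BIRC3. The set was chosen from measured values of the comparison reported below, so the members' differences are given as a description, without p-values. The RNA came from B4G12 cells, an immortalised human line labelled as corneal endothelium, the cell sheet at the back of the cornea. All 6 libraries came from cells given an siRNA. The 3 siControl libraries, of genotype WT in the labels, had a control siRNA. The 3 siNAMPT libraries had an siRNA against NAMPT, the rate-limiting enzyme of NAD salvage. For the siRNAs, the sources used here give no sequence, dose or time after transfection. B4G12 is 1 line, and no label tells whether its replicates were grown apart, so the p-values below cover the spread between these libraries alone, which could be technical.

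TRAIL (the product of TNFSF10) and FAS ligand are cell surface proteins of the tumour necrosis factor family that bind receptors with a cytoplasmic death domain. A bound receptor gathers the adaptor FADD and the initiator caspase CASP8, which then activates executioner caspases directly or through the mitochondria. CFLAR, a relative of CASP8 without protease activity, limits that step, and the ubiquitin ligases BIRC2 and BIRC3 hold the related tumour necrosis factor receptor complexes in a survival-signalling state.

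Total counts were 19510796 to 22364717 per library, and the first principal component, with 64.6% of the variance, separated the groups. Levels are given as CPM, read counts relative to library size, scaled by TMM, edgeR's correction for library composition. The targeted gene, NAMPT, averaged 173 ± 10.4 CPM (SD, n = 3) among siControl libraries and 28.5 ± 1.53 CPM (SD, n = 3) among siNAMPT libraries, 83.5% lower, and the libraries of the groups did not overlap. The exact two-sided permutation test gave p = 0.1, the smallest that 3 against 3 libraries allow. Of 12 corneal endothelial markers, 8 had enough counts to be tested, among these ATP1B1, FOXC1 and CDH2. Together the 12 summed to 1326 to 1355 CPM in siControl. At most 10 counts in any library were found for 4 of them, among these COL8A2, NCAM1 and SLC4A4. The keratin KRT5, of stratified epithelium, was at 1929 ± 110 CPM (SD, n = 3) in siControl. The cells are therefore called by their label, B4G12.

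Of the 10 genes, 9 passed the filter on low counts and were tested among 15213 genes with edgeR's quasi-likelihood test and Benjamini-Hochberg adjustment at 0.05. By that test 4 were called higher in siNAMPT (TNFSF10, CASP8, CFLAR and BIRC2) and 4 lower (TNFRSF10A, FAS, FADD and BIRC3). TNFRSF10B was not called. Over all genes tested, 42.7% were called, 20.8% higher and 21.9% lower. The libraries of the groups did not overlap for 7 of the 9 genes, against 54.9% of all genes. Because the genes were picked on this contrast, nothing is read from these counts. The median log2 fold change was 0.12 over the 9 genes and 0.00 over all genes tested. The 3 differences past 2-fold were those of TNFSF10, FAS and BIRC3.

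**Figure D1:**
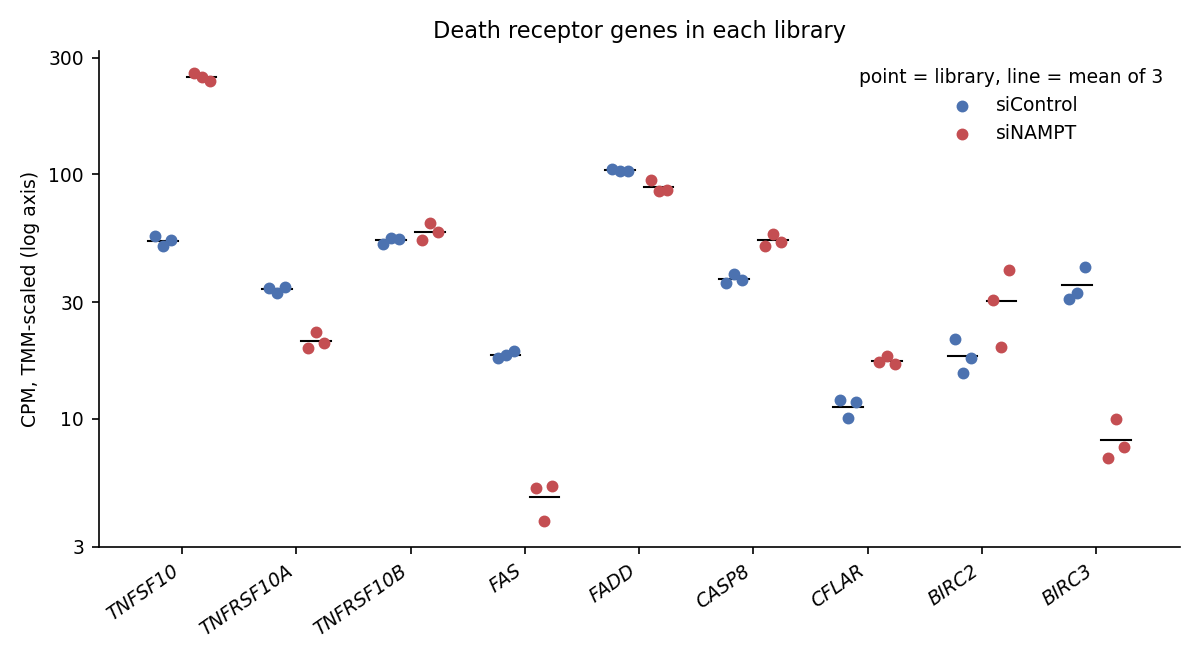
Level of 9 death receptor pathway genes in each library (points, CPM scaled by TMM, log axis), with the mean of 3 libraries per group as a line; blue is siControl and red is siNAMPT. TNFSF10 is higher and FAS and BIRC3 are lower in every siNAMPT library, and the groups overlap for TNFRSF10B and BIRC2.

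TNFSF10 (ENSG00000121858, chr3:172505508-172523507, minus strand) was the gene of the set that differed most. Its level was 56.0, 50.9 and 53.9 CPM in the siControl libraries and 259, 249 and 240 CPM in the siNAMPT libraries. Every siNAMPT library was thus above every siControl library, with little spread within either group. The means were 53.6 ± 2.56 and 249 ± 9.76 CPM (SD, n = 3 each), a log2 fold change of 2.22 (SE 0.06) or 4.65-fold. This was the rise ranked 60 among the 15213 genes tested. FAS ligand, encoded by FASLG, had no count in any library, so a count of 3, equal to 0.132 to 0.152 CPM per library, is the most that this depth leaves for it, for counting error alone. TNF, the ligand of TNFRSF1A, had at most 7 counts in a library.

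Among the TRAIL receptors that carry a death domain, one was lower and the other was close to its control level. TNFRSF10A (ENSG00000104689, chr8:23190452-23225126, minus strand) was at 34.2, 32.6 and 34.7 CPM in siControl and at 19.5, 22.6 and 20.4 CPM in siNAMPT. The groups did not overlap, and the mean went from 33.8 ± 1.09 to 20.9 ± 1.61 CPM (SD, n = 3), a log2 fold change of −0.70 (SE 0.08). TNFRSF10B (ENSG00000120889, chr8:23020133-23069179, minus strand) was at 51.7, 54.8 and 54.4 CPM in siControl and at 53.6, 63.3 and 58.0 CPM in siNAMPT. Here siNAMPT replicate 1 lay within the siControl range, and the log2 fold change was 0.12 (SE 0.08). The count ratio of TNFRSF10B to TNFRSF10A therefore moved from 1.59 ± 0.0867 in siControl to 2.79 ± 0.0491 in siNAMPT (SD, n = 3), with no overlap between groups. TNFRSF10B shares its end with RHOBTB2 on the opposite strand, whose log2 fold change was −0.50, and TNFRSF10A shares its start with the transcript AC100861.1, at 0.47. The sources used here do not say whether the counting used strand.

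The decoy receptors, which bind TRAIL without passing on a death signal, were scarce. TNFRSF10D (ENSG00000173530, chr8:23135588-23164030, minus strand), whose death domain is truncated, had 1 count in siControl replicate 3 and 0 in the other 5 libraries. It did not enter the test, and no fold change is given because both groups lie below the floor of 3 counts. TNFRSF10C, the decoy without an intracellular domain, had 16 to 29 counts per library. Its log2 fold change of −0.55 (SE 0.22) had an adjusted p of 0.0847.

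FAS (ENSG00000026103, chr10:88990531-89015785, plus strand), the receptor of FAS ligand, was much lower in siNAMPT. Its level was 17.8, 18.2 and 19.0 CPM in siControl and 5.22, 3.81 and 5.33 CPM in siNAMPT. All siNAMPT libraries lay far below the lowest control. The means of 18.3 ± 0.608 and 4.79 ± 0.849 CPM (SD, n = 3) give a log2 fold change of −1.93 (SE 0.14), or 3.81-fold lower, the fall ranked 90. The start of FAS is overlapped on the opposite strand by ACTA2, which was itself at 5.33 to 6.44 CPM in siNAMPT with a log2 fold change of 0.45. The count ratio of FAS to its adaptor FADD went from 0.176 ± 0.00712 to 0.0538 ± 0.00864 (SD, n = 3).

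The adaptor and the initiator caspase moved apart by smaller amounts. FADD (ENSG00000168040, chr11:70203163-70207390, plus strand) was at 105, 103 and 103 CPM in siControl and at 94.8, 85.3 and 86.2 CPM in siNAMPT. That is 14.5% lower, a log2 fold change of −0.23 (SE 0.06), with no overlap. Leaving out any 1 library other than siNAMPT replicate 1 ended the call for FADD, at log2 fold changes of −0.23 to −0.20. CASP8 (ENSG00000064012, chr2:201233443-201287711, plus strand) was at 35.8, 39.2 and 36.8 CPM in siControl and at 50.7, 57.1 and 53.1 CPM in siNAMPT. The groups did not overlap, and the log2 fold change was 0.53 (SE 0.07), or 1.44-fold. The FADD to CASP8 count ratio went from 2.79 ± 0.153 to 1.66 ± 0.191 (SD, n = 3).

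CFLAR (ENSG00000003402, chr2:201116104-201176687, plus strand), the inhibitor that pairs with CASP8, was higher in siNAMPT as well. It was at 11.9, 10.1 and 11.7 CPM in siControl and at 17.2, 18.03 and 16.7 CPM in siNAMPT. The groups did not overlap, and the log2 fold change was 0.62 (SE 0.10), or 1.54-fold. The count ratio of CFLAR to CASP8 was 0.303 ± 0.0394 in siControl and 0.323 ± 0.0132 in siNAMPT (SD, n = 3), and its values overlapped between groups. The gene has a very long annotation, with 30381 bases in the authors' length against 14672 in its chosen GENCODE 29 transcript, and the counts do not separate its long and short protein forms.

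The neighbouring inhibitors BIRC3 and BIRC2 on chromosome 11 differed in opposite directions. BIRC3 (ENSG00000023445, chr11:102317450-102339403, plus strand) was at 30.8, 32.7 and 41.8 CPM in siControl and at 6.93, 10.004 and 7.66 CPM in siNAMPT. No siNAMPT library came near the control range. The means of 35.1 ± 5.84 and 8.20 ± 1.60 CPM (SD, n = 3) give a log2 fold change of −2.10 (SE 0.17), or 4.29-fold lower, the fall ranked 64. BIRC2 (ENSG00000110330, chr11:102347211-102378670, plus strand) was at 21.2, 15.4 and 17.7 CPM in siControl and at 30.6, 19.6 and 40.8 CPM in siNAMPT. Its siNAMPT libraries were widely spread, and siNAMPT replicate 2 lay below siControl replicate 1. The log2 fold change of BIRC2 was 0.75 (SE 0.25). It was 0.47 without siNAMPT replicate 3 and 0.98 without siNAMPT replicate 2, and the call was lost on leaving out any 1 library other than siNAMPT replicate 2. The BIRC3 to BIRC2 count ratio was 1.98 ± 0.468 in siControl and 0.308 ± 0.176 in siNAMPT (SD, n = 3), without overlap.

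Promoter windows are shown as a description of sequence, and the part of any promoter in the differences was not tested. RefSeq promoters (GRCh38.p14, 250 bases before to 50 after each start) were matched for 7 of the 10 genes, and TNFRSF10A, TNFRSF10B and TNFRSF10D had no entry. Both strands were searched for the FOXO motif GTAAACA, the interferon regulatory factor motif GAAANNGAAA, the STAT motif TTCNNNGAA and the NF-kB consensus. Each line holds 30 bases on the strand of the gene, with the matched bases in capitals.
BIRC3 chr11:102317275-102317304: tttgggtcatGGAAATCCCCgagtgggttt
BIRC3 chr11:102317339-102317368: tattaccgctGGAGTTCCCCtaagtcctaa
CFLAR chr2:201118609-201118638: cgcggggggcGGGGAATTCCgcagacagga
FAS chr10:88991264-88991293: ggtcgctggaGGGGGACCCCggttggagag
TNFSF10 chr3:172523598-172523627: gaggagcttcTTTCAGTTTCcctcctttcc
CASP8 chr2:201233450-201233479: gagtttttggTTTCTGTTTCaccttgtgtc
CASP8 chr2:201233253-201233282: aaaattatttTTCCAAGAAgaaaataaacc

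BIRC3, with a pair of NF-kB consensus matches, was 4.29-fold lower, and CFLAR and FAS, with 1 match each, were 1.54-fold higher and 3.81-fold lower. TNFSF10 and CASP8, both higher, each held the GAAANNGAAA motif on the minus strand of the gene, and CASP8 also held the palindromic TTCNNNGAA. FADD and BIRC2 held none of the motifs, and none of the 7 genes held GTAAACA. Several genes have more than 1 promoter in the table (CFLAR 4, FAS 3, CASP8 3 and BIRC2 2). Of 27305 genes with RefSeq promoters, 7.09% held the NF-kB consensus in at least 1 of them, 4.38% GAAANNGAAA, 9.38% TTCNNNGAA and 4.19% GTAAACA. Counted over all 35093 promoters, the shares were 5.90%, 3.58%, 7.66% and 3.42%. A match describes the letters in this window only and is neither a binding site nor a cause.

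Levels between genes were compared per length. In the authors' FPKM, which divide by a gene length, the siControl order was FADD (56.0), TNFSF10 (9.52), TNFRSF10A (9.24), TNFRSF10B (6.59), CASP8 (3.03), BIRC3 (2.43), FAS (2.12), BIRC2 (1.51) and CFLAR (0.367). TNFSF10 and TNFRSF10A overlapped between libraries, as did CASP8 with BIRC3 and BIRC3 with FAS. In siNAMPT, TNFSF10 had an FPKM of 44.9 ± 1.28 (SD, n = 3), close below FADD at 48.5. FAS, CFLAR and BIRC3 were the lowest of the 9 genes there, at FPKM of 0.562, 0.573 and 0.576, and overlapped one another between libraries. The authors' length can run well above 1 transcript, with 5588 bases for TNFSF10 against 1953 in GENCODE. For FADD the 2 lengths were the same, at 1841 bases. Per kilobase of that 1 transcript, TNFSF10 had 27.4 CPM in siControl and 128 CPM in siNAMPT, and FADD 56.4 and 48.2 CPM, so on that scale TNFSF10 stood above FADD in siNAMPT. FAS had 1.87, BIRC3 1.58 and CFLAR 1.18 CPM per kilobase of transcript in siNAMPT, so the order among these lowest genes also depends on the length used.

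The rest of the pathway was read from a list of 48 other genes, of which 40 were tested. Of these, 5 rose, 15 fell and 20 did not pass, with a median log2 fold change of −0.18. For comparison, 42.7% of all genes tested were called, 20.8% higher and 21.9% lower. Whether the counts of this list or of its parts differ from those shares was not tested. The 8 untested genes had at most 10 counts in any library. The receptors gave 0 rises and 4 falls among 7 tested. TNFRSF1B, a tumour necrosis factor receptor without a death domain, fell from 2.38 ± 0.488 to 0.564 ± 0.128 CPM (SD, n = 3), a log2 fold change of −2.08 with adjusted p = 0.0007. TNFRSF6B, a soluble decoy for FAS ligand whose gene overlaps RTEL1, had 42, 61 and 82 counts in siControl and 12, 0 and 1 in siNAMPT, with adjusted p = 0.0044. The death receptor TNFRSF21 fell by 0.76 on the log2 scale (adjusted p = 7.4e-05) and TNFRSF12A by 0.68 (adjusted p = 0.0016). TNFRSF1A, the death domain receptor for TNF, did not pass, at 0.07 (SE 0.13, adjusted p = 0.684), and was −0.063 without siControl replicate 3.

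Among 11 adaptors and regulators of the initiator step, 2 rose and 4 fell. CASP10, the close relative of CASP8, rose by 0.62 (SE 0.14, adjusted p = 0.0095) on the log2 scale, beside the 0.53 of CASP8. TRADD, the adaptor of TNFRSF1A, rose by 0.53 (adjusted p = 0.0027). TRAF1, which binds BIRC2 and BIRC3 together with TRAF2, went from 10.7 ± 1.13 to 2.99 ± 0.291 CPM (SD, n = 3), a log2 fold change of −1.83 with adjusted p = 8.4e-05. TRAF2 and the kinase RIPK1 fell by 0.32 and 0.28 on that scale (adjusted p = 0.0055 and 0.0090).

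Of 9 other ubiquitin ligases and deubiquitinases, 0 rose and 3 fell. TNFAIP3, a ubiquitin-editing enzyme that restrains NF-kB signalling, fell from 34.9 ± 2.998 to 13.5 ± 1.11 CPM (SD, n = 3), a log2 fold change of −1.37 with adjusted p = 6.8e-05. The deubiquitinases CYLD and OTULIN were lower by little, at −0.30 (adjusted p = 0.0343) and −0.29 (adjusted p = 0.0207), and each lost its call without siControl replicate 3, at −0.23 and −0.24. XIAP, the direct caspase inhibitor related to BIRC2 and BIRC3, did not pass, at −0.17 (SE 0.28, adjusted p = 0.654). Among siNAMPT libraries, replicate 2 had the lowest BIRC2 and the highest XIAP level. XIAP was at −0.58 without that library (adjusted p = 0.0231) and at 0.034 without siNAMPT replicate 1.

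Downstream of CASP8, the list of mitochondrial amplification gave 1 rise and 2 falls among 6 tested. The separate list of executioner caspases and nuclease genes gave 2 rises and 2 falls among 5 tested. From that list, the effector caspase CASP6 rose by 0.55 on the log2 scale (adjusted p = 0.0021). The inhibitor and the nuclease of apoptotic DNA fragmentation, DFFA and DFFB, both fell, by 0.35 (adjusted p = 0.0023) and 0.49 (adjusted p = 0.0406) on the log2 scale. In the mitochondrial list, BID, the substrate through which CASP8 reaches the mitochondria, fell by 0.23 (adjusted p = 0.0310). CASP9 of the same list rose by 0.49 (adjusted p = 0.0375). The calls of BID, CASP9 and DFFB were lost on leaving out any of several single libraries, with values of −0.18, 0.51 and −0.39 without siNAMPT replicate 3. The necroptosis kinase RIPK3 had at most 5 counts in a library, and its substrate MLKL did not pass, at −0.11 (adjusted p = 0.210).

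**Figure D2:**
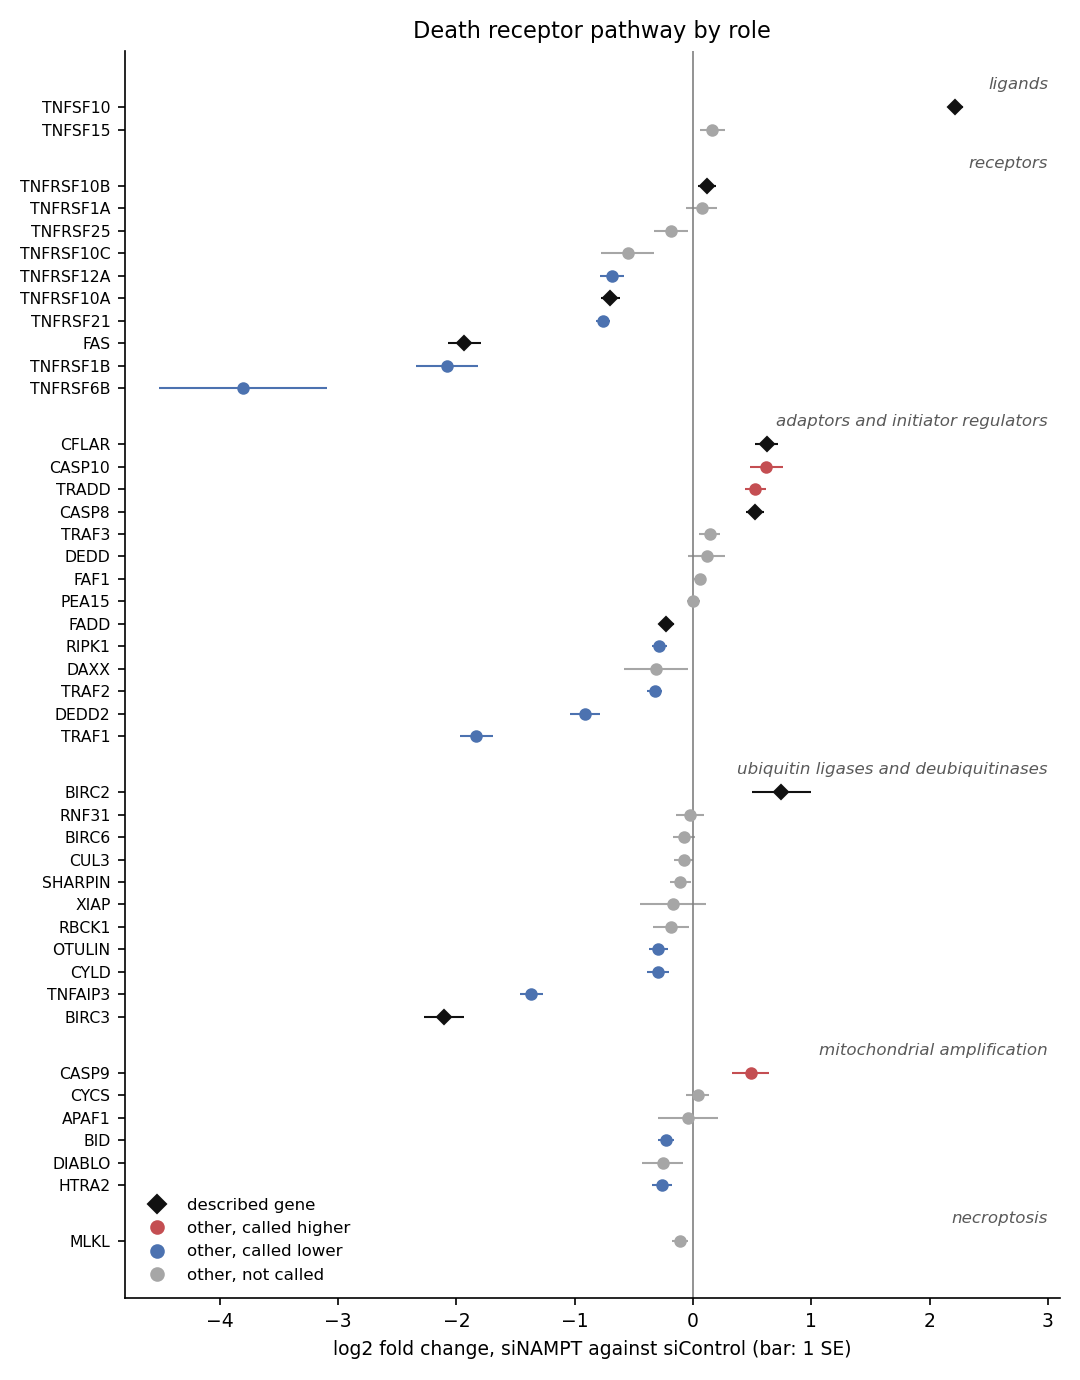
Log2 fold change of siNAMPT against siControl (points, with bars of 1 SE) for the 9 tested genes of the set (black diamonds) and 35 other pathway genes (circles; red called higher, blue called lower, grey not called), by role. Among the other genes drawn, 3 are called higher and 13 lower, and all 4 called receptors are lower. The 5 executioner caspases and nuclease genes, of which 2 are called higher and 2 lower, are not drawn.

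TNFSF10 is a known target of FOXO factors and of interferon, FAS and TNFRSF10B of p53, and BIRC3 and CFLAR of NF-kB. Each factor's targets outside the set are given beside them. Over all genes tested, 20.8% were called higher and 21.9% lower. Of 18 listed interferon-stimulated genes, 7 rose and 4 fell, with a median log2 fold change of 0.18. They ranged from IFIT3 at −1.49 (adjusted p = 1.0e-05) to IFI44L at 1.26 (adjusted p = 0.0257), all below the 2.22 of TNFSF10. This holds for the 18 listed genes only, and GBP2, outside the list, was at 2.27. The call of IFI44L was lost without siControl replicate 3 (1.34) and without siNAMPT replicate 1 (1.31) or 3 (1.11). Of 12 FOXO targets tested, 5 rose and 3 fell, with a median of 0.43. PIK3IP1, a brake on PI3 kinase, rose by 2.31 and TXNIP, a thioredoxin inhibitor, by 1.89 on the log2 scale, values near that of TNFSF10, while GADD45A fell by 1.36 (adjusted p = 0.0007, 2.7e-06 and 7.3e-05).

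Of 14 p53 targets, 3 rose and 4 fell, with a median of −0.09. BBC3, which encodes the pro-apoptotic protein PUMA, rose by 1.07 (adjusted p = 0.0012) and TIGAR fell by 1.32 (adjusted p = 5.3e-05) on the log2 scale. FAS, at −1.93, lay below the lowest of the 14, and TNFRSF10B, at 0.12, lay near their middle. Of 13 NF-kB targets tested, 0 rose and 7 fell, with a median of −0.74. IL6 fell by 1.26 and CXCL8 by 1.20 on the log2 scale (adjusted p = 0.0071 and 0.0033). BIRC3, at −2.10, was below and CFLAR, at 0.62, above each of these 13. The lists hold genes that answer to more than 1 factor, and no factor's part in any member's difference was tested.

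**Figure D3:**
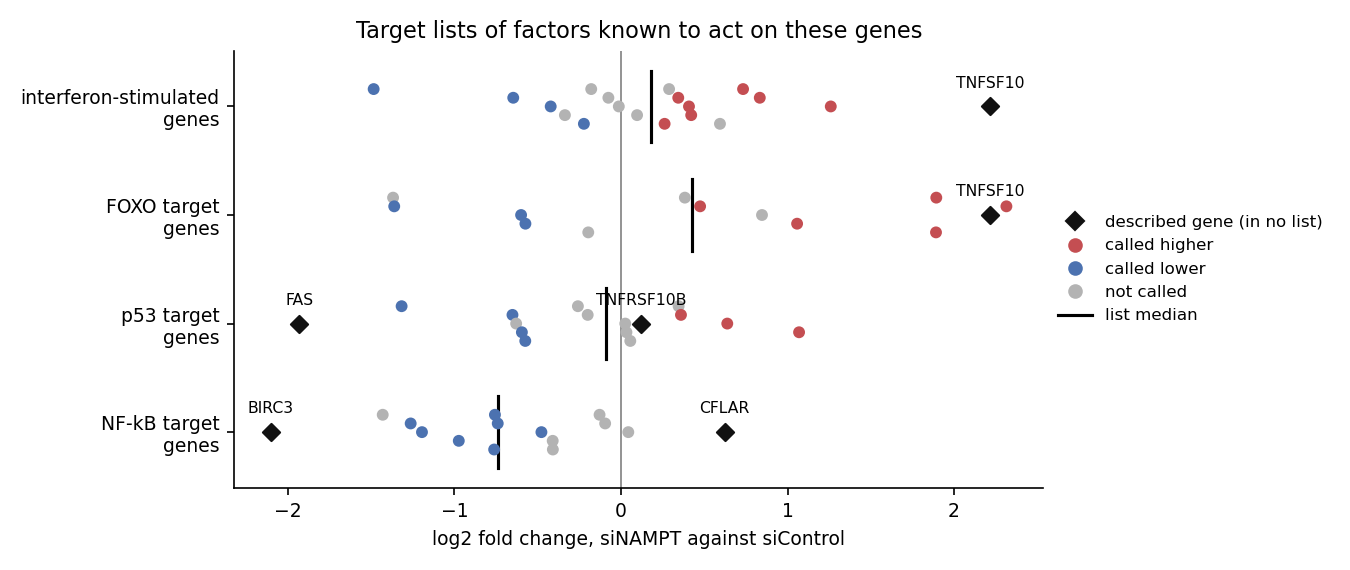
Log2 fold change of siNAMPT against siControl for tested genes of 4 target lists (circles; red called higher, blue called lower, grey not called; black line, list median) with the described genes known as targets as black diamonds. BIRC3 at −2.10 and FAS at −1.93 lie below every gene of the list beside them, and TNFSF10 at 2.22 lies above the 18 interferon-stimulated genes listed.

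A 6-base word, ACCATA, was counted in the 3′ UTR of 1 GENCODE 29 transcript per gene because an earlier scan of these data had found related words in genes that fell. Sites in genes of the set are shown, as 30 bases on the strand of the transcript (GRCh38) with the word in capitals.
BIRC3 chr11:102337242-102337271: atatgtatctaaACCATAtgaacatatatt
FAS chr10:89014905-89014934: tctagagattttACCATAtttctaaacttt
TNFSF10 chr3:172505926-172505955: caagagatcaagACCATAgtgaccaacata
CFLAR chr2:201164768-201164797: ctataccaaattACCATAgaccaggtgact
CFLAR chr2:201171930-201171959: ccccaaaatataACCATActtcaagggcag
CFLAR chr2:201175123-201175152: agtcaagaagcaACCATAaatatagccagt

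BIRC3 and FAS, the genes of the set that were most lowered, each held 1 copy, but so did TNFSF10, the most raised, and CFLAR, also raised, held 3 in a 3′ UTR of 12714 bases. FADD and TNFRSF10A, which were lower, held none, and neither did TNFRSF10B, TNFRSF10D, CASP8 or BIRC2. Over 11541 genes searched, the median log2 fold change was 0.01 for the 8932 without the word, −0.15 for the 1819 with 1 copy and −0.27 for the 790 with at least 2. Among genes with at least 1 copy, 9.54% were below −1, against 2.09% of those without. The word was picked with genes that fell in these data in view, so lower values among its holders follow in part from that choice. The length of the 3′ UTR was not taken into account, so these shares and the counts below are a description only. Of the 48 other pathway genes, 10 tested genes held the word, of which 0 rose and 6 fell. Among the 30 tested genes without it, 5 rose and 9 fell. No siRNA sequence was at hand, and the word's part in the levels of BIRC3 and FAS was not tested.

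**Figure D4:**
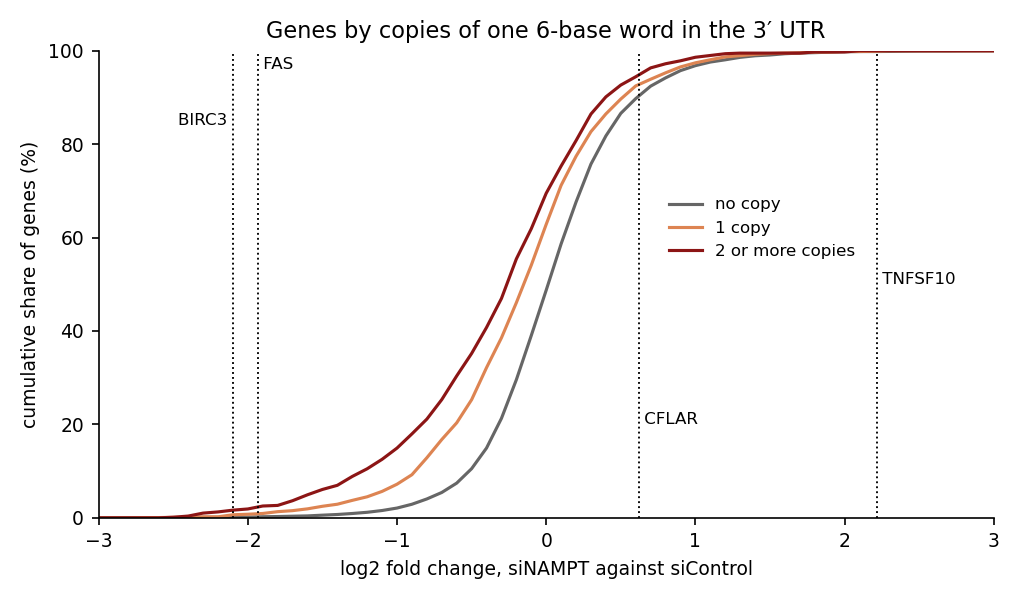
Cumulative share of genes (%) by log2 fold change of siNAMPT against siControl, for genes with no copy (grey, 8932 genes), 1 copy (orange, 1819) and at least 2 copies (dark red, 790) of the word in the 3′ UTR. Dotted lines mark the members that hold it, BIRC3 and FAS at −2.10 and −1.93 and CFLAR and TNFSF10 at 0.62 and 2.22. The word was picked with genes that fell in these data in view.

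Markers of other cell types were summed beside the set, since immune and stromal cells also express TNFSF10 and FAS. The 7 immune markers summed to 8.24 to 11.002 CPM in siControl and 18.4 to 21.8 CPM in siNAMPT. Nearly all of this was CD68, a lysosomal protein that other cells make too, which rose from 9.02 ± 1.47 to 19.4 ± 1.57 CPM (SD, n = 3, adjusted p = 0.0007). NKG7 was at 0 in every library, and PTPRC and CD3E, found on most leukocytes and on T cells, had at most 2 and 3 counts. The 8 keratocyte and fibroblast markers summed to 12.7 to 15.0 and 20.9 to 23.0 CPM, with KERA at 0. Of 3 tested, 2 rose: DCN from 0.498 ± 0.146 to 2.11 ± 0.275 CPM (SD, n = 3; log2 fold change 2.07, adjusted p = 0.0008) and COL3A1 by 0.84 on the log2 scale (adjusted p = 0.0006). The 6 vascular endothelial markers summed to 9.69 to 11.4 and 13.4 to 15.3 CPM, with KDR at 0. Of 2 tested, VWF rose by 0.85 on the log2 scale (adjusted p = 0.0215). It lost its call without siControl replicate 1 (0.80) or 2 (0.69) and without siNAMPT replicate 1 (0.79) or 3 (0.77). The 12 stratified epithelial markers summed to 6241 to 6717 CPM in siControl and 7045 to 7896 CPM in siNAMPT. The part of these markers in the members' levels was not tested. In these bulk samples, fewer cells of a type and less RNA per cell cannot be told apart.

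The genes whose pattern over the 6 libraries was most like that of TNFSF10 were found by the root mean square difference of log2(CPM + 0.5), centred on the siControl mean, among 12828 genes. They were GBP2 (difference 0.0785, log2 fold change 2.27), SYNC (0.115, 3.08) and CYRIA (0.133, 2.27). GBP2 was not on the list of interferon-stimulated genes above, so the comparison of TNFSF10 with that list leaves it out. SYNC averaged 0.389 CPM among siControl and 3.33 CPM among siNAMPT libraries, so it passed the minimum level only through siNAMPT, and the added 0.5 compresses its difference toward that of TNFSF10. For BIRC3 they were EIF5A2 (difference 0.125, log2 fold change −2.19), ETV5 (0.136, −2.20) and IL6ST (0.136, −2.09). The measure ranks likeness between libraries of this experiment alone.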

How the data were processed

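The mRNA of 6 libraries was sequenced on an Illumina NovaSeq in paired-end mode, per the labels' protocols. The deposited table gives whole-number counts per gene and library and, per the file headers, FPKM, in which the authors divided by a gene length and the library's total. Aligner, counting program, use of strand and annotation were not given in the sources used here. Per the submitters' processing notes, builds were GRCh38 and mm10. The IDs are human, 98.5% of them are in GENCODE 29, and coordinates are given as GRCh38. No value column was left unmapped.

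Groups and replicate numbers came from the sample titles. The test was edgeR 4.0.16 (R 4.3.3) with TMM, filterByExpr, glmQLFit and glmQLFTest, two-sided, over 15213 genes, with no covariate and Benjamini-Hochberg adjustment at 0.05. The fit was tested on simulated data. The SE is the log2 fold change divided by the root of F. No replicate pair matched within sampling noise (chi-square of 11.6 to 16.7 per gene). Floors cover counting error only, while the SD and the SE also hold the spread between libraries.

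The members and all gene lists were chosen with earlier results of these data known. Named genes beyond the members were NAMPT, up to 2 that rose and 2 that fell per list with the largest changes, any pathway gene with a role, and the 3 genes most like TNFSF10 and BIRC3 with a mean of at least 1 CPM. The 164 list symbols were all in the table, and some of these genes are not reported here. The 3′ UTRs (at least 50 bases, mean of at least 1 CPM) came from GENCODE 29, with 1 transcript per gene. Python 3.11.15 drew the figures. Alternatives were DESeq2 1.42.0, RLE factors, no count filter, limma 3.58.1 on log2(FPKM + 1) where FPKM reached 1 in at least 3 libraries, a replicate block, and each library left out.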

Additional observations from a re-analysis of the deposited data

How the results depend on the processing

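TNFSF10, TNFRSF10A, FAS, CASP8 and BIRC3 kept their direction and call under DESeq2, RLE factors, no count filter, limma on log2(FPKM + 1), the replicate block and each library left out, as did CFLAR wherever it was tested. Over these settings TNFSF10 ranged from 2.13 to 2.25 on the log2 scale. FAS and BIRC3 shrank to −1.001 and −1.12 with limma, whose pseudocount of 1 compresses low values. With limma, 2 members were called higher against 4, because CFLAR fell below the FPKM minimum and BIRC2 lost its call, and 3 other pathway genes against 5. Leaving out 1 library left 6 to 7 members, 14 to 18 other pathway genes and 5145 to 5886 genes of the table called, each with fewer samples. With single libraries left out, TNFRSF1A ranged from −0.063 (without siControl replicate 3) to 0.22 (without siControl replicate 2) and was never called. XIAP ranged from −0.58 (without siNAMPT replicate 2, where it was called) to 0.034 (without siNAMPT replicate 1).

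Replicate numbers are shared by the groups, but deviations of same-numbered libraries correlated at only 0.0894, −0.000334 and 0.0713 across genes. The labels do not say whether same-numbered libraries were handled together, and these correlations cannot decide it. With the number as a replicate block, 6336 genes, 8 members and 16 other pathway genes were called. Depth limits TNFRSF10D and FASLG, which lie below the floor of 3 counts.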
